A study of Mus musculus with 12 samples.

Results

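The regions described here are stretches of chromatin that were wide open in every library and lay far from gene ends. A region entered the set when it held at least 30 rppm (reads per 1000000 reads in all regions of the table) in each of the 12 libraries and lay more than 3000 bp from both ends of every RefSeq protein-coding gene of mm10. Of 94161 regions, 1827 met the rule (1.94%). Another 4188 regions were as open but lay near a gene end, 69384 were as far from gene ends but not as open, and 46 open regions lay on scaffolds that carry no placed gene and were counted apart. The regions were thus chosen by their measured level in every library, and those levels are a description and carry no test. The contrasts between groups were not part of the rule, although a region low in any 1 group could not enter.

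The libraries were made by ATAC-seq, in which a transposase cuts accessible DNA, from 10000 sorted cells each. All cells came from spleens of female C57BL/6J mice without stimulation. Marginal zone B cells (MZB) carried the sort markers CD23- CD21hi CD1d+. Follicular B cells (FoB) were the CD23+ CD21mid CD1d- cells, and both were B220+ and lacked Thy1.1, F4/80, CD11b, CD93 and GL7. Each cell type was either wild-type (WT) or knockout (KO) for LSD1, the histone demethylase encoded by Kdm1a, which gave 4 groups of 3 libraries. The sources used here give neither the cells in which the gene was deleted, nor the means of deletion, nor the age of the mice. Nothing in the labels says that the 3 libraries of a group came from separate mice, so every p-value measures the spread between these libraries, which may be technical.

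Reads recovered per library ranged from 3169966 to 10375328, with the second WT FoB library the deepest. The distal open regions held 10.4% to 12.2% of those reads, and the least covered of them had 96 to 321 reads depending on the library. The single region at Kdm1a, at the gene's start on chr4:136601890-136603082, averaged 22.8 rppm and did not differ between genotypes (limma: log2 difference 0.13 with adjusted p = 0.773 for MZB, and -0.14 with adjusted p = 0.866 for FoB). That region is not known to lie in the deleted part, so it does not check the genotype labels.

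Open chromatin far from gene ends is where enhancers, insulators and starts of RNAs outside the annotated gene ends are found. Enhancers bind transcription factors and raise transcription of genes that may be far away. In B cells, distal elements carry factors such as PU.1, EBF1, E2A, PAX5 and MEF2C, and LSD1 removes methyl groups from histone H3 lysine 4, a mark of active enhancers and promoters.

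Part of the set lay at transcript starts inside or between genes. RefSeq start windows, which run from 250 bases before to 50 bases after a listed start, overlapped 307 of the regions. The sequences below are the 150 bases before 6 of these starts, taken from RefSeq on GRCm38.p6. Of these, 5 are shown for their high level or a difference between groups, and Zfp800 as the most open start with NRF1, KLF/SP and ETS matches together. Slc39a10 (chr1:46853619-46853768, minus strand) and Prdm10 (chr9:31280399-31280548, plus strand) lay under 2 of the most open start regions. Zfp800 (chr6:28261925-28262074, minus strand) was picked by its matches, which are thus no result. Insig2 (chr1:121327679-121327828, minus strand) was lower in both knockout groups, Sp140 (chr1:85600553-85600702, plus strand) was lower in knockout MZB, and Smim10l1 (chr6:133105089-133105238, plus strand) was higher in MZB. Capitals mark matches on either strand to the KLF/SP box GGGCGGG, the NRF1 site GCGCNTGCG, the short ETS site AGGAAGT or the E-box CACCTG.
Slc39a10: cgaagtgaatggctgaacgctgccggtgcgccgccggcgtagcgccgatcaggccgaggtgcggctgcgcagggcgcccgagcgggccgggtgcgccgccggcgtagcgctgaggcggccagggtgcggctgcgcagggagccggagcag
Prdm10: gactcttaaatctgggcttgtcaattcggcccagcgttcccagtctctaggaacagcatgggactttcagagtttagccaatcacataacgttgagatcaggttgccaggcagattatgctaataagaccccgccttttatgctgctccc
Zfp800: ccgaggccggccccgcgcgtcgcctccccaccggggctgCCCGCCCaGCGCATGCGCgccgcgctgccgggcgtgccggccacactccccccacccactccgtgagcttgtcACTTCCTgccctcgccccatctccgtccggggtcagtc
Insig2: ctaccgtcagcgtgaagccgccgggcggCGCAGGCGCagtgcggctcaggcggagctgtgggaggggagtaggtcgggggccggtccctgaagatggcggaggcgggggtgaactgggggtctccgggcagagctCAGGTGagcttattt
Sp140: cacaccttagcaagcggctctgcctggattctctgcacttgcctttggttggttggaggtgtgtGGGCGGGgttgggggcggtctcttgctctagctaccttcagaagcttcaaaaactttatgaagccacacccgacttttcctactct
Smim10l1: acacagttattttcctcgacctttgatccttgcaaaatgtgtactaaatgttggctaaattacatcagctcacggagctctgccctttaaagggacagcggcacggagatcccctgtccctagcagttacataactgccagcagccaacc
Zfp800 held a KLF/SP box, 2 overlapping NRF1 matches on opposite strands and an ETS match. Insig2 held an NRF1 match and an E-box, and Sp140 a KLF/SP box. The other 3 held none of the motifs searched, although Slc39a10 was 78% G or C with 25 CpG pairs, against 4 CpG pairs in Prdm10, Sp140 and Smim10l1.

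Start sequences under the set were richer in G, C and CpG than the average start. The 256 protein-coding start windows under the regions had a median GC content of 61.8% and 21 CpG pairs, compared with 56.3% and 13 for all 21262 protein-coding windows, and with 62.7% and 24 for the 4057 under open regions near gene ends. The 144 windows of lncRNA starts had 55.3% and 12, compared with 48.3% and 4 for all 11588. Those 441 under open regions near gene ends had 66% and 28. A KLF/SP box was found in 47.7% of the protein-coding windows under the set and in 33.9% of all, and an NRF1 site in 14.8% and 8.61%. At lncRNA starts the shares were 34.7% and 10.3% for KLF/SP, and 9.72% and 2.10% for NRF1. Under open regions near gene ends both shares were higher than under the set. There KLF/SP was in 53.4% of protein-coding and 53.1% of lncRNA windows, and NRF1 in 17.1% and 17.2%. A raised share is thus not particular to the distal set. The PU.1 site GAGGAAGT, which contains the short ETS site, was in 3.12% of protein-coding windows under the set and 3.13% of all, and the octamer ATTTGCAT in 1.56% and 1.66%. The E-box CACCTG was in 17.6% and 19.7% of them, and the E-box CAGCTG in 14.5% and 15.6%. At lncRNA starts the PU.1 site was in 6.25% against 3.33% and the octamer in 4.86% against 1.87%, but these rest on 9 and 7 windows. CACCTG was in 22.9% against 21.1% there, and CAGCTG in 9.72% against 17.7%. Motifs in the other regions, away from listed starts, were not analysed here.

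By position, 953 of the 1827 regions (52.2%, exact 95% interval 49.8% to 54.5%) lay within the body of a protein-coding gene. Among the regions equally far from gene ends but less open, 50.4% did. When each region was put in 1 class, 794 lay between genes, 726 in gene bodies, 209 over a protein-coding start and 98 over the start of a lncRNA gene only. Start windows lay under 16.8% of the set, under 1.83% of the less open distal regions and under 76.6% of the open regions near gene ends. The regions outside genes were a median of 28210 bp from the nearest gene body, and the farthest, chr5:60042738-60043130, was 1765713 bp from G6pd2. Chromosomes carried between 32 regions (chromosome 19) and 141 (chromosome 10).

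Median width was 831 bp (range 124 to 2682 bp), against 302 bp in the less open distal regions and 1021 bp near gene ends. The median region averaged 51.6 rppm, and its SD within groups was 0.11 on the log2 scale, as it was near gene ends. The rule asked for a high level in every library, and a high level can go with width and a small SD, so neither value is independent of the rule. Only 48 of the 1827 were narrower than 400 bp, compared with 68.5% of the less open distal regions. Those 48 averaged higher (median 132.8 rppm) and spread more within groups (median SD 0.50, against 0.11 in the wider regions). Of the 63 regions whose SD within groups exceeded 0.3, 41 were among these 48.

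**Figure D1:**
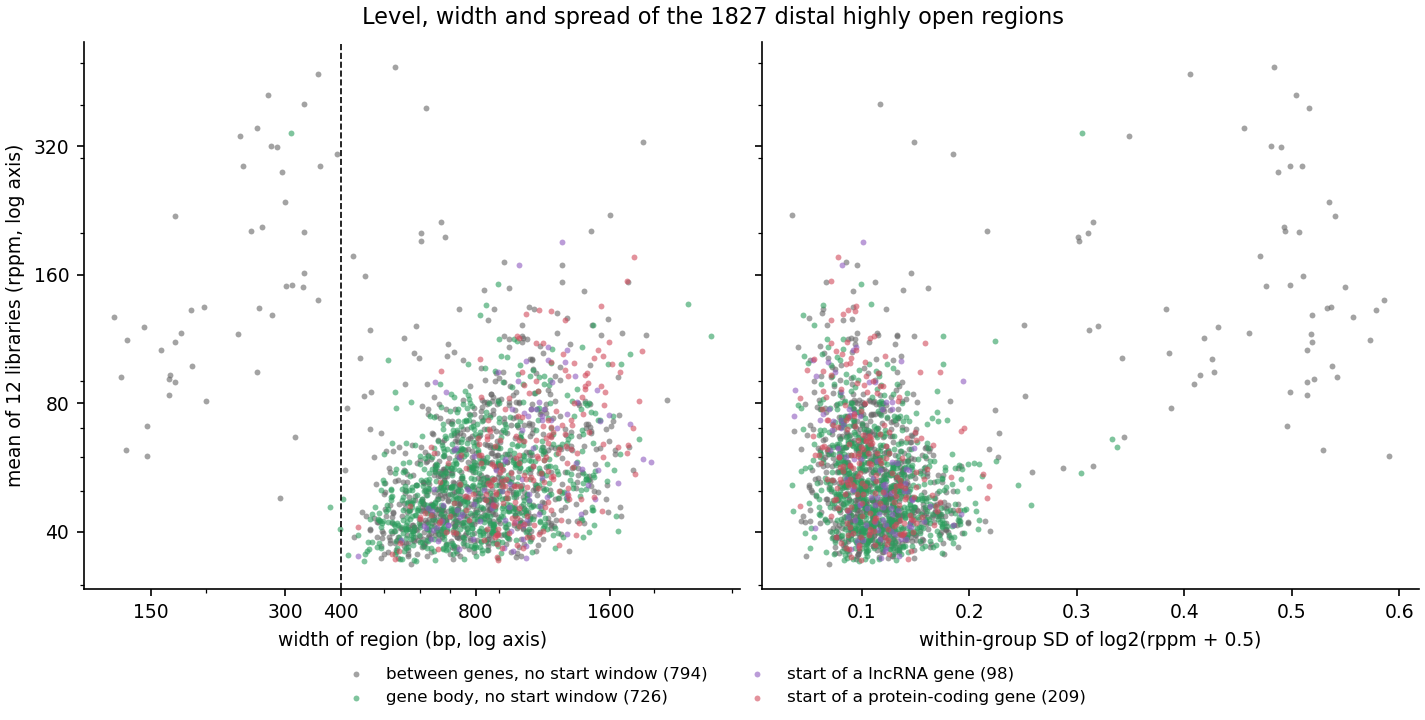
Mean level over the 12 libraries in rppm (log axis) of each of the 1827 distal open regions, against its width in bp and against its within-group SD on the log2 scale, coloured by class. The dashed line marks 400 bp, and the 48 narrower regions include 15 of the 20 with the highest mean and most of those with an SD over 0.3.

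The highest levels were found in a few gene-poor stretches. The most open region, chr14:19418473-19419002, averaged 491 rppm and the next, chr14:19415732-19416087, 471 rppm. After these came chr12:3109875-3110150 at 421 rppm, 137278 bp from Rab10. Its libraries read 538, 290 and 410 rppm in WT MZB, 386, 474 and 255 in KO MZB, 359, 245 and 705 in WT FoB, and 422, 455 and 512 in KO FoB. Within the WT FoB group alone the values thus differed by more than any 2 group means. By contrast, chr6:9889902-9890233, 640283 bp from Nxph1 and next at 402 rppm, varied less, between 319.9 and 478 rppm.

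Members of the set gathered in places. When neighbouring regions were joined across gaps of up to 12468 bp, 1493 of the 1628 stretches held 1 region, and 7 held 4 or more. The longest run, chr9:3002034-3038260, held 35 regions with a median width of 241 bp, and its nearest protein-coding gene was Alkbh8. Another 8 lay on chr6:47744036-47778718 near Gm40363 and Pdia4, and 6 on chr17:39843103-39848761, where RefSeq places the ribosomal RNA pseudogene Rn18s-rs5. A further 5 lay on chr14:19415732-19419434. Another 4 lay at chr13:83055863-83085571, nearest to Mef2c, and 4 at chr1:72225719-72255736 between Mreg and Pecr, where small nuclear RNA genes are found.

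The chromosome 9 run varied from library to library rather than by group. It took 0.749%, 0.455% and 0.577% of the reads in the 3 WT MZB libraries, and 0.681%, 0.589% and 0.374% in KO MZB. In WT FoB it took 0.489%, 0.326% and 0.961%, and in KO FoB 0.549%, 0.603% and 0.789%. All 35 regions were highest in the third WT FoB library, and 30 were lowest in the second, the deepest library. The 46 open scaffold regions followed the same order at the extremes: 0.411% in the second and 0.920% in the third WT FoB library, with 32 of 46 highest in the third. The 5 regions on chromosome 14 did so as well, since all 5 were highest in the third WT FoB library, where they took 0.197% of the reads, and lowest in the second, where they took 0.0715%. The region chr12:3109875-3110150, given above, had the same extremes. Over the 1792 distal open regions outside the chromosome 9 run, these included, the median deviation of a library from its group means lay between -0.0438 and 0.0339 on the log2 scale. Sequences that occur in many near-identical copies share reads. The sources used here do not say how such reads were placed, so the levels in these runs are uncertain.

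**Figure D2:**
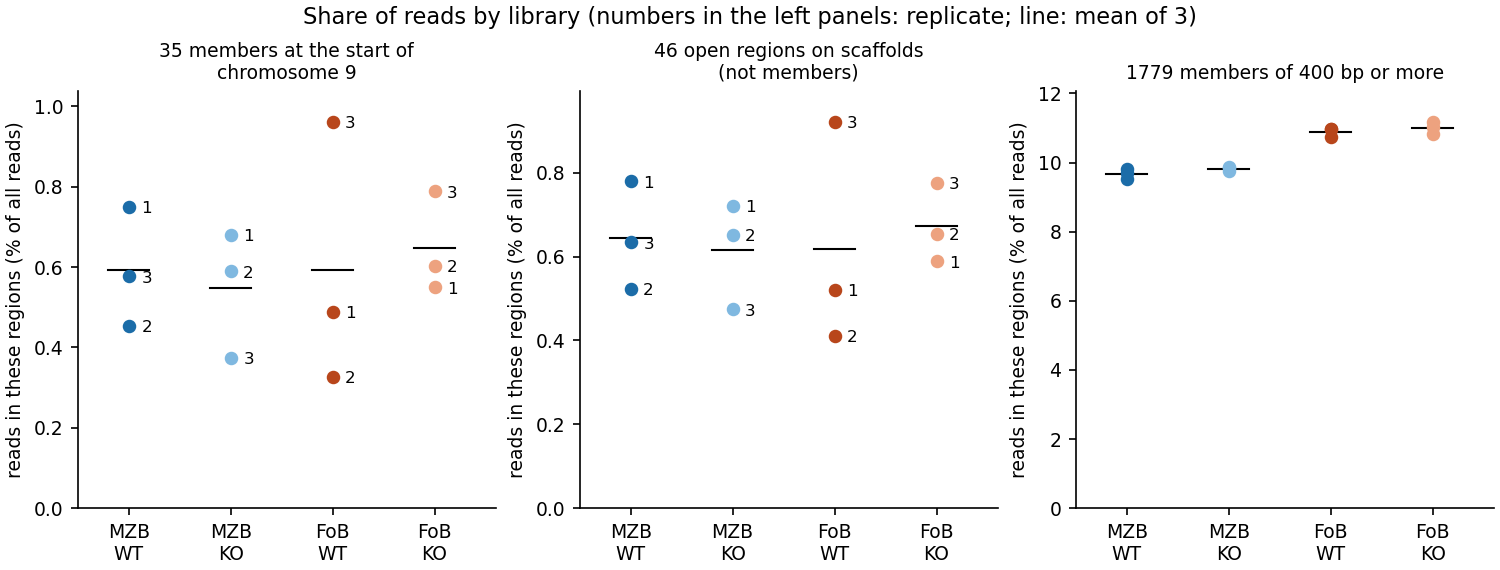
Percent of reads of the table (vertical axis) in each of the 12 libraries, for the 35 regions of the chromosome 9 run, the 46 open scaffold regions and the 1779 distal open regions of 400 bp or more. The first 2 panels peak in the third WT FoB library, whereas the wide regions separate MZB (9.53% to 9.87%) from FoB (10.7% to 11.2%).

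At the other end, some regions hardly moved at all. The region 42472 bp from Elk3, an ETS-family factor gene, lay between 41.7 and 45.7 rppm in all 12 libraries. The region 3436 bp from Pecr, at chr1:72254252-72255736, lay between 58.7 and 66.0 rppm, and a region in the body of Rbbp8, a DNA-end resection factor, between 63.5 and 72.8 rppm. These 3 had the smallest SD over the libraries by definition. Those with the largest were chr3:135191697-135192387 near Cenpe, chr11:3104748-3106329 near Sfi1 and chr5:43824285-43825057 in Bst1, and each of them separated MZB from FoB.

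Small RNA genes lay under 44 of the regions (2.41%, exact 95% interval 1.76% to 3.22%). The share was 1.27% of the open regions near gene ends and 0.393% of all placed regions. A wide region overlaps a gene more easily, and median widths were 831, 1021 and 339 bp in that order. The part of width was not tested. The small RNA genes included tRNA genes under 24 regions (1.31%, against 0.382% near gene ends and 0.179% of all placed regions). Small nuclear RNA genes lay under 13 (0.712%, against 0.119% and 0.0585%). The most open was a tRNA cluster at chr3:19627879-19629401, which averaged 115 rppm (98.1 to 126). The 7SK gene Rn7sk, whose RNA holds back the elongation factor P-TEFb, averaged 71.7 rppm, and the signal recognition particle RNA gene Rn7s2 62.5 rppm. The 4 U3 small nucleolar RNA genes Rnu3b1 to Rnu3b4, inside Tex14, averaged 51.5 to 68.1 rppm. Where small RNA genes have near-identical copies, reads may be shared as in the runs above, so these levels and shares are uncertain. MicroRNA genes lay under 5 regions. The mature sequences from Mirlet7i (chr10:122985698-122985719 for the 5p arm and chr10:122985642-122985663 for the 3p arm, minus strand) and Mir713 (chr13:62760807-62760825, plus strand), the most open of the 5, are from RefSeq on GRCm38.p6 with the seed, bases 2 to 8, in capitals. They were chosen after their values were seen.
mmu-let-7i-5p: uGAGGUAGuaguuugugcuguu
mmu-let-7i-3p: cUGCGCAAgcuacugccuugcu
mmu-miR-713: uGCACUGAaggcacacagc
The let-7 microRNAs repress many growth-promoting transcripts through this seed, and none of the 3 sequences shares a seed with another. The let-7i region, chr10:122985255-122986569 and 5491 bp from Mon2, read 51.5, 65.9 and 68.1 rppm in WT MZB and 32.9, 51.7 and 58.8 in KO MZB. In FoB it read 61.9, 57.1 and 63.3 in WT and 44.5, 54.4 and 67.3 in KO, so genotypes overlapped in both cell types (adjusted p = 0.184 and 0.832, limma). Mir713 lay in a region of 80.6 rppm.

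Immunoglobulin loci gave a contrast of their own. A region of the heavy chain locus, chr12:113424284-113425352, read 76.4, 74.7 and 69.7 rppm in WT MZB and 94.7, 83.0 and 55.3 in KO MZB. In FoB it read 162, 95.9 and 124 in WT and 104.7, 83.2 and 198 in KO, so KO FoB libraries differed by more than 2-fold among themselves. A region of the lambda light chain locus, chr16:19178840-19180240, stayed between 56.9 and 73.1 rppm in all 12 libraries.

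The first comparison asked how MZB and FoB differ, which the design allows in both genotypes. A region was called when its adjusted p was under 0.05 in limma, fitted on log2(rppm + 0.5) over all 89782 regions that passed the filter on low values, with Benjamini-Hochberg adjustment over all of them. All 1827 distal open regions passed that filter. In WT cells 152 of them (8.32%) were higher in MZB, against a background of 24.2% of all regions tested. Another 695 (38%) were lower in WT MZB, against 11.4% (35.7% called in either direction). In KO cells 132 (7.22%) were higher (background 23.2%) and 658 (36%) lower (background 9.47%, and 32.7% in either direction). Open regions near gene ends leaned further the same way, with 61 of 4188 higher and 2401 lower in WT cells. The median log2 difference was -0.16 for the distal open regions in WT and -0.17 in KO cells, whereas that over all regions was 0.18 and 0.14.

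The direction of this bulk shift depended on the scaling, whereas the largest differences named below kept their calls. Medians of the set were -0.34 in WT and -0.34 in KO cells after TMM scaling, but 0.04 and 0.03 after quantile normalisation, where the median of all regions was -0.08 in both. Counts followed: TMM gave 74 higher and 1118 lower in WT cells (19.3% and 18.1% of all regions) and 55 and 1128 in KO cells, and quantile normalisation gave 380 higher and 233 lower (15.1% and 15.1%) and 342 and 177. Quantile normalisation gives every library the same distribution of values. A shift shared by the most open regions is therefore largely removed by it and cannot be judged in that setting. In bulk libraries, a region open in fewer cells and one less open in each cell cannot be told apart. Summed levels of several marker lists for other cells moved with the cell type too. The median over all regions did so as well, at 4.35 to 4.59 rppm in the MZB libraries and 3.05 to 3.29 in FoB. A higher sum in MZB is thus not particular to these lists. Regions at the 10 measured of 15 T cell genes summed to 302 to 320.1 rppm in the MZB libraries and 237 to 258 in FoB, those at 11 of 14 myeloid genes to 657 to 740.4 and 573 to 601, and those at 8 of 8 dendritic cell genes to 504 to 577 and 394 to 456. Sums at all 9 B-1 cell genes were 1514 to 1560 rppm in MZB and 1061 to 1209 in FoB, and those at 11 of 12 immature and transitional B cell genes were lower in MZB (850 to 1043 against 1113 to 1277). Both cell types overlapped for 8 of 9 NK cell genes (373 to 432 and 382 to 442) and for 8 of 10 erythroid and megakaryocyte genes (212 to 226 and 197 to 218). Their part in the result was not tested.

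Calls in the 2 genotypes overlapped. Their group means share no library, but both contrasts came from the same fit to all libraries. Each region thus had the same variance estimate in both, so the calls are not independent. No overlap share over all regions is given here for comparison. Of the regions called higher in WT MZB, 104 were also called higher in KO MZB (68.4% of 152 and 78.8% of 132), and of those called lower 533 (76.7% of 695 and 81.0% of 658). None was called in opposite directions. Most differences were modest, with a median size among called regions of 0.42 (higher) and 0.41 (lower) on the log2 scale in WT cells. Only 4 called regions were at least 2-fold higher and 5 at least 2-fold lower in WT MZB, and 1 and 2 in KO MZB. By class, 113 of the 209 protein-coding starts (54.1%) and 50 of the 98 lncRNA starts were lower in WT MZB, and 241 of 726 in gene bodies (33.2%). After quantile normalisation 28 protein-coding starts were lower and 17 higher, but 82 in gene bodies were lower and 191 higher.

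**Figure D3:**
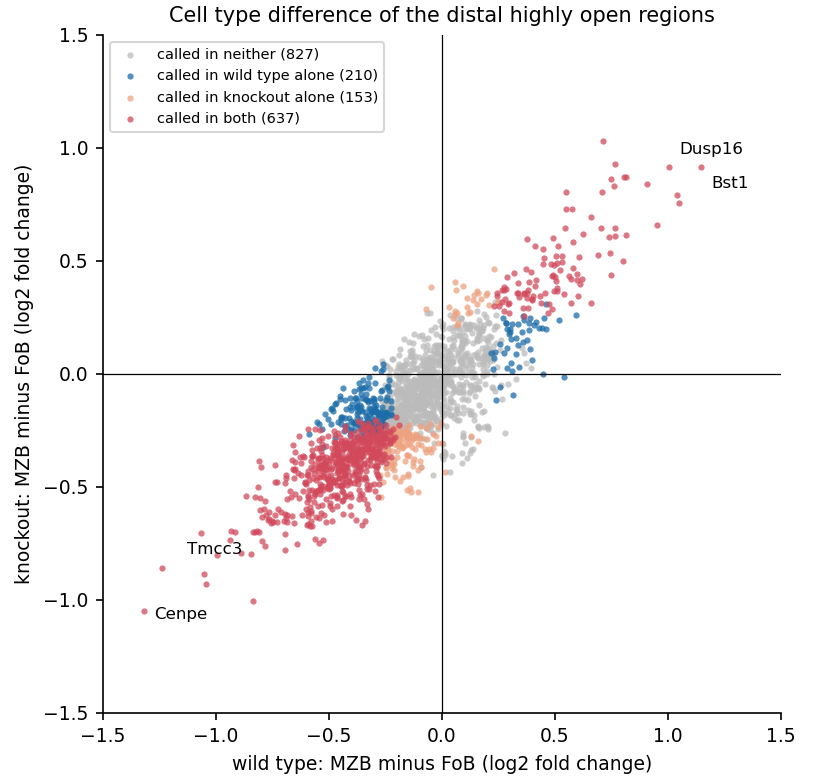
Log2 difference MZB minus FoB in WT (horizontal) and KO cells (vertical) for each of the 1827 distal open regions, coloured by where limma called it. Of these, 637 were called in both genotypes, 210 in WT alone, 153 in KO alone and 827 in neither, and those called in both lie in the lower left and upper right.

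Among the largest losses in MZB was the region 27118 bp from S1pr1, the receptor for sphingosine-1-phosphate that steers B cells between marginal zone, follicle and blood. It read 45.6, 40.7 and 42.3 rppm in WT MZB and 35.9, 45.1 and 45.5 in KO MZB. FoB libraries read 98.0, 84.8 and 83.8 in WT and 82.8, 78.9 and 79.5 in KO. No MZB library reached the FoB range, and the log2 difference was -1.04 (SE 0.10, adjusted p = 1.07e-10) in WT and -0.93 (SE 0.10, adjusted p = 1.69e-09) in KO cells. Non-overlap of the cell types was common, at 56.9% of the set and 46.7% of all regions in WT. In KO cells the shares were 52.5% and 42.3%.

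A region 20176 bp from Cenpe, a mitotic kinesin gene, showed the largest difference of the set in both genotypes. It read 52.6, 54.5 and 70.6 rppm in WT MZB against 140.2, 149 and 153 in WT FoB (-1.32, SE 0.09, adjusted p = 5.68e-14). In KO cells it read 60.9, 69.4 and 70.9 against 137, 146 and 135 (-1.05, SE 0.09, adjusted p = 1.87e-11). The region 11204 bp from Bcl11a, a zinc finger factor that early B cell development requires, read 31.8, 33.2 and 39.8 rppm in WT MZB and 58.0, 65.3 and 64.5 in WT FoB (-0.84, SE 0.10). In KO cells the same region read 35.7, 32.2 and 36.6 against 66.2, 72.9 and 72.2 (-1.01, SE 0.10). Here too neither genotype had overlapping cell types. Further losses were near Sfi1 (-1.24 in WT, -0.86 in KO), in Bckdhb, a subunit of branched-chain keto acid breakdown (-1.07, -0.70), and near Tmcc3 (-1.05, -0.89).

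Regions higher in MZB were led by those at Bst1 and Smim10l1. In Bst1, the ectoenzyme CD157, a region at chr5:43824285-43825057 read 105, 103 and 98.6 rppm in WT MZB and 36.1, 52.9 and 50.4 in WT FoB (1.15, SE 0.11, adjusted p = 9.18e-11). In KO cells it read 84.7, 101 and 97.2 against 48.0, 55.6 and 45.7 (0.92, SE 0.11, adjusted p = 1.64e-08). The start region of Smim10l1, whose sequence is given above, read 63.2, 71.2 and 65.6 rppm in WT MZB against 30.4, 34.2 and 31.3 in WT FoB (1.05, SE 0.10), and the KO difference was 0.75 (SE 0.10). It lay only just inside the level rule through its FoB values. Dusp16, a phosphatase that turns off JNK and p38, held a region that was 1.00 higher in WT and 0.92 in KO cells.

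Other gains stood far from their nearest gene. The region 203688 bp from Tet2, a DNA demethylating enzyme, read 55.3, 63.8 and 68.7 rppm in WT MZB and 33.9, 41.9 and 38.2 in WT FoB (0.71, SE 0.10). The KO libraries read 66.0, 68.5 and 68.6 against 31.2, 33.8 and 33.8 (1.03, SE 0.10). A region 176497 bp from Ahr, the aryl hydrocarbon receptor, was 0.77 higher in WT and 0.93 in KO cells. Regions near Cdh26 (1.04, 0.79), in Pde4d, a cAMP phosphodiesterase (0.95, 0.66), and in Grm5 (0.81, 0.87) completed the 10 gains and losses named in each genotype. All 20 of these calls, 10 in each genotype, kept their side of the threshold under the 24 alternatives run, TMM and quantile scaling included.

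The regions were spread over many genes. In all, 1341 genes were nearest to or contained at least 1, 1060 of them only 1 and 40 at least 4. Of 28 B lineage transcription factor genes 13 had a region, 41 in all, which is 3.57% of the 1147 tested regions at those genes. The set was 1.94% of all 94161 regions, a wider base that includes regions removed by the filter on low values. Other lists had higher shares, among them NK cells (10%, from 3 regions, all at Klrb1c), MHC class II (8%), housekeeping genes (5.36%) and B-1 cells (4.24%), so the share is not particular to these factors. Of the whole set 38% were lower and 8.32% higher in WT MZB, and 36% and 7.22% in KO MZB. Counts by list and gene, here and below, are to be read beside those values. In WT MZB 17 of the 41 were lower and 2 higher, and in KO MZB 19 and 2. In WT cells TMM gave 27 lower and 2 higher, and quantile normalisation 6 lower and 9 higher, so the direction of this list differed with the scaling. Quantile normalisation largely removes a shift shared by the most open regions. Its counts, here and below, therefore cannot judge such a shift. Mef2c, a factor for B cell survival and activation, had the most of these genes with 11, of which 7 were lower in WT and 9 in KO MZB, and none higher. With TMM all 11 were lower in each genotype, and under quantile normalisation 2 and 3 were.

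The 2 highest regions of Mef2c lay in its body. At chr13:83608880-83609775 the libraries read 134, 140.4 and 148 rppm in WT MZB, 122, 125 and 132 in KO MZB, 165, 186 and 199 in WT FoB, and 169.7, 160.2 and 146 in KO FoB (-0.38 in WT, adjusted p = 0.000125; -0.33 in KO, adjusted p = 0.000784). At chr13:83571860-83572702 they read 118, 120.4 and 123, then 109, 99.4 and 106, then 155, 161 and 175, then 162, 151 and 152 in the same order (-0.44 and -0.56). Within each genotype every MZB library lay below every FoB library at both, but such non-overlap was common, as given above beside S1pr1. Another 7 lay 390985 to 482565 bp away, where the most different, chr13:83041445-83042217, averaged 63.5 and 51.5 rppm in WT and KO MZB and 103 and 84.6 in FoB (-0.69 and -0.71).

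Other factors differed less evenly. All 5 regions at Bcl11a were lower in WT MZB and 4 in KO MZB, with 3 and 2 after quantile normalisation. Ets1 had 7, from 39.0 to 90.5 rppm, of which 1 was lower in WT and 3 in KO MZB, but 1 lower and 2 higher in WT after quantile normalisation. The one lower in both, chr9:32695561-32696306 in the gene body, averaged 52.8 and 48.0 rppm in MZB and 76.7 and 72.1 in FoB (-0.53 and -0.58). Foxo1 had 4, 3 of them lower in WT and 1 in KO MZB, while quantile normalisation gave none lower and 1 higher in WT. Of 3 at Tcf4, encoding E2-2, the one at chr18:69644420-69645153 was higher in MZB, at 61.4 against 45.5 rppm in WT (0.45) and 67.8 against 48.3 in KO cells (0.49). Another of the 3 was called lower in KO MZB.

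A region in Pax5, which commits cells to the B lineage, averaged 42.4, 43.4, 43.1 and 44.5 rppm in WT MZB, KO MZB, WT FoB and KO FoB, and passed no test. In Ebf1, which acts beside it, the averages were 64.2, 60.9, 73.4 and 72.7, called lower only in KO MZB (-0.25, adjusted p = 0.0214). Regions at Irf4, Irf8, Foxp1 and Pou2f1 were not called between cell types in either genotype. Bach2, a repressor that restrains plasma cell differentiation, went the other way at 1 of its 2 regions. That region, chr4:32358385-32359499, read 75.03, 68.3 and 57.5 rppm in WT MZB against 54.5, 47.8 and 45.6 in WT FoB (limma: 0.43, adjusted p = 0.000819). It was 0.34 higher in KO MZB. In each genotype 1 of the 2 was called higher and none lower. Among receptor genes, a region in Ptpn6, the phosphatase SHP-1 that dampens receptor signals, read 37.2, 32.2 and 32.3 rppm in WT MZB and 59.7, 48.5 and 44.7 in WT FoB (-0.57, adjusted p = 8.58e-05). The stronger region at Syk, the kinase next to the receptor, averaged 68.4 and 75.6 rppm in the same groups and was not called.

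The list for the follicular programme had 5 regions, at Satb1, Icosl and Ccr7, and all 5 were lower in MZB in both genotypes. After quantile normalisation 1 and 2 were called lower. Satb1, a chromatin organiser, held 3 of them, and the highest, 328909 bp away at chr17:52162199-52163497, read 99.9, 81.9 and 101 rppm in WT MZB and 121, 124 and 134 in WT FoB (-0.43, adjusted p = 0.000173). Icosl, the ligand that engages ICOS on T cells, had a region 6848 bp away that read 56.7, 55.3 and 58.8 rppm against 74.2, 70.9 and 72.1 (-0.34). MHC class II and its regulators had 6 regions at 6 genes, 5 of them lower in each genotype (4 and 2 after quantile normalisation). In the body of Ciita, the master activator of these genes, the region averaged 64.3 rppm and differed by -0.52 in WT and -0.45 in KO cells. At H2-Eb1, a class II beta chain gene, it averaged 36.2 and 34.5 rppm in WT and KO MZB and 54.4 and 52.9 in FoB (-0.58 and -0.61). The region near Cd74, the invariant chain, was the 1 of 6 not called.

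The marginal zone programme had 10 regions at 6 genes, and 6 of them were lower in MZB, with none higher in WT and 1 in KO cells. In WT cells TMM gave 8 lower, and quantile normalisation 1. Over the 256 tested regions at the 17 genes of this list, levels summed to 3242 to 3388 rppm in the MZB libraries and 2826 to 3003 in FoB. The sum in rppm was thus higher in MZB, but so was the median over all regions given above, and the rise is not particular to this list. The 142 tested regions at the 11 follicular genes summed to 1645 to 1739 in MZB and 2104 to 2263 in FoB. The regions that fell in WT included 4 of the 5 at S1pr1 (1 after quantile normalisation), a gene which appears in this list and in that for migration, and a region 25619 bp from Hes1, a Notch target, at 52.9, 52.6 and 56.0 rppm in WT MZB against 76.9, 70.7 and 75.7 in WT FoB (-0.46). The one higher in KO cells was at S1pr3. Of the whole set, 38% were lower in WT MZB and 36% in KO MZB. Lists for the B cell receptor (13 regions), NF-kB (7) and migration and adhesion (13) had 4, 4 and 7 lower and none higher in WT MZB. In KO MZB these lists had 2, 3 and 6 lower and 0, 0 and 2 higher. With TMM the WT counts were 8, 7 and 10 lower and none higher. Under quantile normalisation they were 1 lower and 1 higher, 0 and 0, and 3 and 1, so the counts depend on scaling. In the NF-kB list, a region in Nfkbiz, an atypical inhibitor family member, read 79.3, 74.4 and 74.0 rppm in WT MZB against 109, 110.5 and 100.3 in WT FoB (-0.49). Plasma cell and germinal centre genes had 6 regions, 2 of them lower and none higher in WT MZB, and none lower and 1 higher in KO MZB. B-1 genes had 5, with 2 lower and 1 higher in WT and 1 of each in KO MZB. In WT cells TMM gave 3 lower and 0 higher for the former and 2 and 1 for the latter. Quantile normalisation gave 0 lower and 1 higher for the former and 1 and 2 for the latter, so these counts too depend on scaling. Lists for LSD1 and its partners, T cells and erythroid cells had none.

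**Figure D4:**
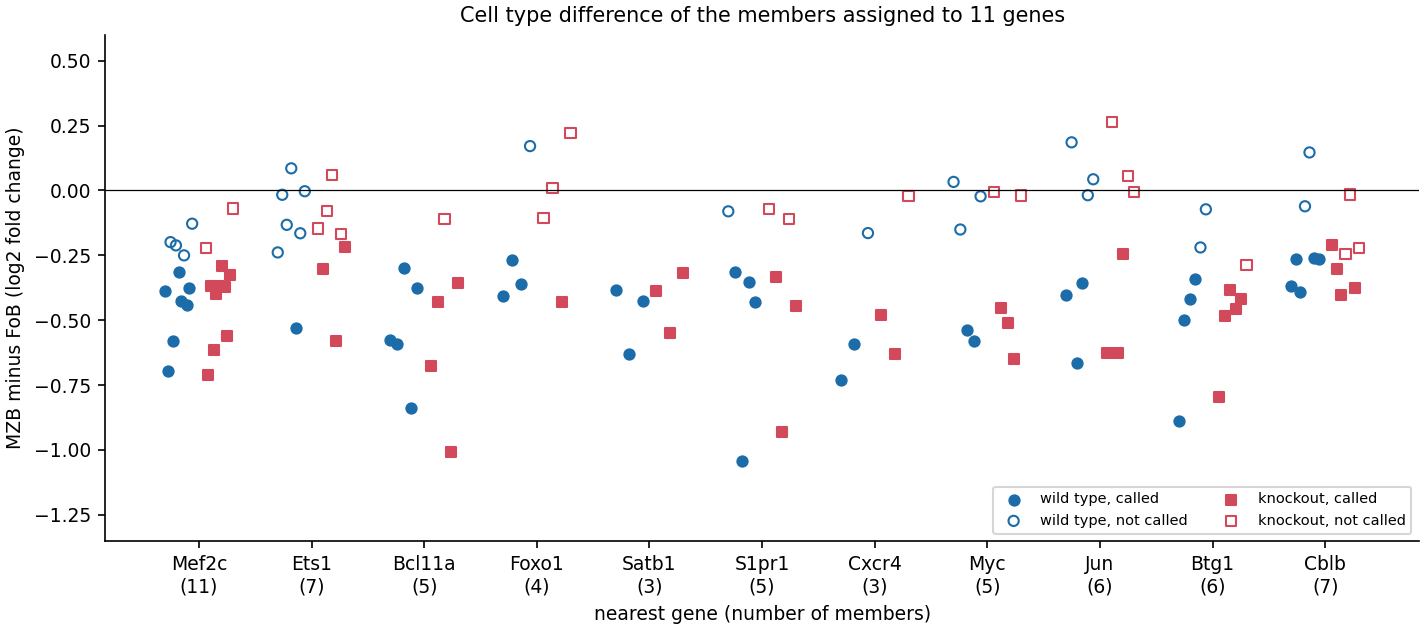
Log2 difference MZB minus FoB of every distal open region at 11 genes, WT as circles and KO as squares, filled where limma called it. Regions at Mef2c, Bcl11a, Satb1 and S1pr1 lie below 0, while Ets1, Foxo1, Myc and Jun hold regions on both sides.

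Genes outside the lists also held groups. Btg1, an antiproliferative gene, had 6 regions 40705 to 283307 bp away, and the farthest averaged 55.1 and 58.9 rppm in WT and KO MZB against 102 and 103 in FoB (-0.89 and -0.79). Myc had 5, of which the one 178788 bp away averaged 89.1 and 96.8 against 130.0 and 138 rppm (-0.54 and -0.51). Cblb, an E3 ligase that limits lymphocyte activation, had 7 in its body, 5 lower in WT and 4 in KO MZB, but none lower and 1 higher in WT after quantile normalisation. A lncRNA start at chr1:7397386-7398632, the most open of all starts, read 134, 141 and 161 rppm in WT MZB and 244, 224 and 237 in WT FoB (-0.69, adjusted p = 1.20e-09).

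The second comparison asked what loss of LSD1 did to the set within each cell type. In MZB, 8 of the 1827 regions were higher in KO cells (background 0.502%) and 9 lower (background 0.275%, and 0.777% in either direction), which is 0.438% and 0.493% of the set. In FoB, 3 were higher (background 0.32%) and 6 lower (background 0.219%, and 0.539% in either direction). Shares this small lie near the background, and median differences were 0.03 in MZB and 0.02 in FoB, against -0.02 over all regions in each. In each of the 17 called regions the WT and KO MZB libraries did not overlap, as was true of 6 of the 9 in FoB. Non-overlap on its own was common, at 19.5% of the set and 17.7% of all regions in MZB, and at 16.3% and 14.7% in FoB. Of the 17 calls in MZB 15 were lost under at least 1 of the 24 alternatives, as were 8 of the 9 in FoB.

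The lower regions in KO MZB included 2 that held under every setting tried. The start region of Sp140, inside Sp110, both genes for nuclear body proteins induced by interferon, read 62.9, 65.1 and 66.2 rppm in WT MZB and 46.4, 39.4 and 37.8 in KO MZB (-0.65, SE 0.10, adjusted p = 0.000328). In FoB it read 68.4, 51.8 and 56.6 in WT and 43.9, 48.8 and 47.5 in KO (-0.32, adjusted p = 0.199). In Nek7, a kinase needed for the NLRP3 inflammasome, a region read 64.8, 62.5 and 63.1 rppm in WT MZB and 41.7, 44.2 and 42.0 in KO MZB (-0.57, SE 0.09, adjusted p = 0.000322). Its FoB values were 71.2, 67.2 and 75.2 in WT and 59.6, 53.3 and 54.6 in KO (-0.35, adjusted p = 0.0667). Neither MZB group overlapped its counterpart, and in neither gene did the FoB difference pass the test in this fit.

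Insig2, which holds the sterol sensor SCAP in the endoplasmic reticulum, was lower in both cell types at the start printed above. It read 79.3, 87.5 and 88.3 rppm in WT MZB against 67.2, 60.3 and 65.0 in KO MZB (-0.40, SE 0.08, adjusted p = 0.0106). In FoB it read 103, 90.1 and 93.6 against 69.5, 69.4 and 76.0 (-0.41, SE 0.08, adjusted p = 0.0101). The MZB call was lost under 4 alternatives, with adjusted p up to 0.104 in DESeq2, and the FoB call under 3, up to 0.0957 without the first WT FoB library. A region in A530032D15Rik also fell in both (-0.44, adjusted p = 0.00998 and -0.41, adjusted p = 0.0221), and a second one in MZB (-0.41). Where this gene cluster holds near-identical copies, reads may be shared, so these values are uncertain. The 2 regions called in both cell types make 22.2% of the 9 and 33.3% of the 6.

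Gains in KO MZB were led by regions near Slc22a28 (0.46), Cxcr4 (0.43) and in Flt3 (0.43). Cxcr4 is the receptor for CXCL12 and guides B cells within lymphoid organs; the region 15597 bp away read 41.6, 37.8 and 40.7 rppm in WT MZB and 56.7, 53.9 and 52.0 in KO MZB (SE 0.09, adjusted p = 0.00935). Without the second WT MZB library the adjusted p was 0.069. The same region read 68.7, 67.2 and 64.2 in WT FoB and 78.6, 77.0 and 71.7 in KO FoB, so all FoB libraries were above all MZB libraries. Flt3, a cytokine receptor of progenitors and dendritic cells, read 41.3, 43.3 and 39.2 rppm in WT MZB and 58.1, 51.4 and 57.6 in KO MZB (adjusted p = 0.0177). That call was lost under 5 alternatives, with limma's adjusted p at 0.104 without the third WT MZB library and DESeq2's at 0.062. Others were near Adgre5 (0.40), Nrip1 (0.40), H2bc11 (0.40), Slc1a3 (0.38) and Gm11232 (0.31), and the remaining losses were in Cpeb2 (-0.41), Atxn7 (-0.38) and Stap1, an adaptor of B cell receptor signalling (-0.37), and near Nxph1 (-0.26), which was lost under 17 alternatives. Summed levels at 11 of 12 immature and transitional B cell genes were 850 to 903 rppm in WT MZB and 1038 to 1043 in KO MZB. Sums at dendritic cell genes were 504 to 544 and 552 to 577, and their part in these calls was not tested.

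In FoB the firmest call was in Rgs13, which dampens signalling from chemokine receptors in germinal centre B cells. Its region at chr1:144173269-144174050 read 82.1, 84.6 and 85.0 rppm in WT FoB and 55.3, 51.3 and 44.7 in KO FoB (-0.73, SE 0.09, adjusted p = 4.17e-06). In MZB it read 84.5, 80.0 and 79.0 in WT and 65.3, 67.5 and 64.4 in KO (-0.30, adjusted p = 0.0964). The FoB call held under all 24 alternatives. Plcl2, a phospholipase C-like protein that tempers B cell receptor signalling, held the largest gain, with 79.1, 51.8 and 52.3 rppm in WT FoB and 93.7, 75.4 and 137 in KO FoB (0.72, SE 0.15, adjusted p = 0.0127). Those groups overlapped, and without the third KO FoB library the adjusted p was 0.184. Regions near Olfr1358 (0.46) and in Atp6v0d2 (0.44) were also higher. A region 112652 bp from Cxcr4 was lower (-0.40, adjusted p = 0.032). That call was lost under 8 alternatives, with limma's adjusted p at 0.19 without the first WT FoB library and DESeq2's at 0.16. Without the third WT FoB library the count of higher regions was 24, and 20 of those lay in the chromosome 9 run. Both remaining losses (-0.50 and -0.41) were in the ribosomal RNA run on chromosome 17, where the genotypes overlapped in 1 or more libraries.

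**Figure D5:**
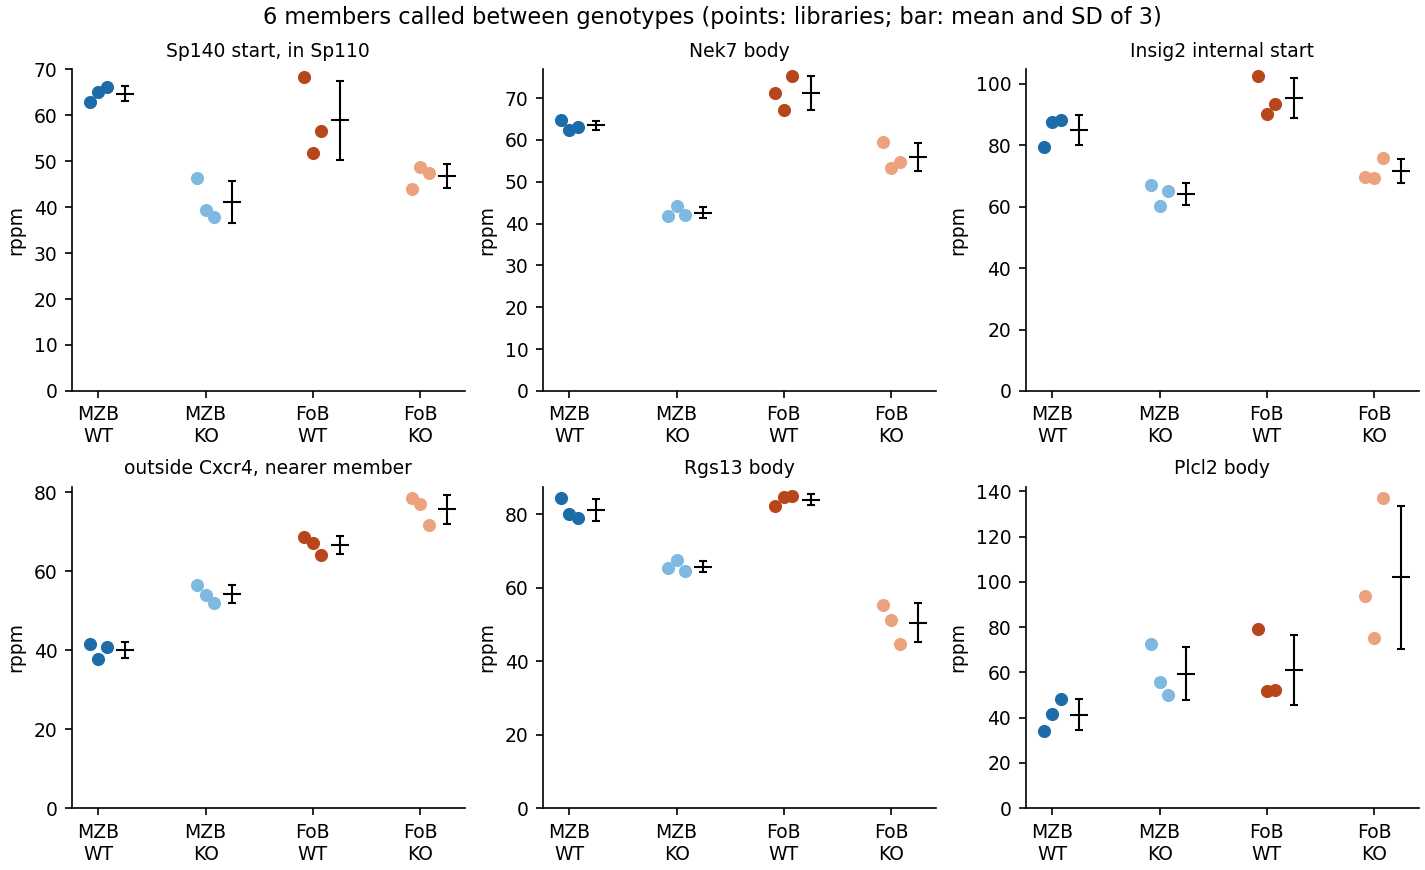
Level in rppm (vertical axis) in each of the 12 libraries for 6 distal open regions called in a genotype comparison, with bars at group means and error bars of 1 SD (n = 3). Sp140 start, Nek7 and Insig2 drop in KO MZB and Rgs13 drops furthest in KO FoB, while the Plcl2 groups overlap in FoB.

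Many of the genotype calls lay on chromosome 1. It held 6 of the 17 in MZB, 5 of them lower, and 4 of the 9 in FoB, all lower, but 136 of the 1827 regions. Over all regions, 1.92% of those on chromosome 1 were called in MZB and 0.683% of those elsewhere, and 1.38% and 0.47% in FoB. Between 120 and 140 Mb, which holds Insig2, Cxcr4 and Nek7, 7.8% of 897 regions were called in MZB and 5.91% in FoB. From 140 to 160 Mb, which holds Rgs13, the shares were 2.15% and 3.53%. From 80 to 100 Mb, which holds Sp140 and A530032D15Rik, they were 1.92% of 731 regions and 0.41%. That stretch held 3 of the set's 6 MZB calls on chromosome 1 and 1 of the 4 in FoB. The cause of this excess was not tested. Without the regions on chromosome 1, the set had 7 higher and 4 lower in KO MZB, and 3 and 2 in KO FoB.

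The genotype effects in MZB and FoB were then compared directly. No distal open region passed that test (limma, smallest adjusted p = 0.589, background 0.00111% higher and 0.0% lower), and none did by edgeR or DESeq2. Calls in 1 cell type alone, such as Sp140 in MZB or Rgs13 in FoB, are therefore not shown to differ between cell types.

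Regions just inside and just outside the level rule looked alike. The region in Zc3h12d, an RNase gene, entered with 30.1 rppm in its lowest library, the third WT FoB library, and 57.6 in its highest. The region in Cdh5 entered with the same lowest value. Just outside were the regions near Tex44, Samsn1 and Nxpe4, each with 1 library fractionally under 30 rppm and means of 40.9, 36.7 and 36.4 rppm.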

How the data were processed

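The deposited table held 94161 regions and 12 columns of RPM values (rppm, reads per 1000000 reads in peaks), as the authors normalised them: each column summed to 1000000. Bowtie 1.1.1 and MACS2 are named in the submitters' processing notes, with mm10, and their roles are not stated. All columns were mapped to samples by their names.

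Limma (3.58.1, R 4.3.3) was fitted to log2(rppm + 0.5) over the 89782 regions with at least 1 rppm in 3 or more libraries, with 1 mean per group and all 12 libraries, and Benjamini-Hochberg adjustment at 0.05. Whole reads recovered from the RPM steps of the deposited values were whole for 100% of values (tolerance 0.01). EdgeR (4.0.16, quasi-likelihood) and DESeq2 (1.42.0) were run on them, and edgeR with TMM called 8 higher and 8 lower of the distal open regions in KO MZB, 5 and 6 in KO FoB, and 71 and 1168 in MZB against FoB in WT cells. Exact binomial intervals cover counting error only. The fit was tested on simulated data. Pandas 2.3.3 and scipy 1.17.1 (Python 3.11.15) did the rest. Nearest genes, small RNA genes and start windows came from RefSeq tables of the same build.

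The regions, gene lists and tests were chosen with earlier results of these data known. Named were the 5 largest called differences in each direction and contrast, the highest, steadiest and most variable regions, those nearest the level rule, and the 2 highest regions of each gene list; starts, small RNA and immunoglobulin genes, other genotype calls and further regions of list genes were added after values were seen.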

Additional observations from a re-analysis of the deposited data

How the results depend on the processing

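The set itself moved with its rule. A minimum of 20 rppm gave 3734 regions (12.77% over a start, median width 736 bp, within-group SD 0.1268), 50 rppm gave 532 (47.18% in gene bodies, 21.43% over a start, 955.5 bp, 0.09939), and 30 rppm per kb gave 4506. With 1000 bp to gene ends 55.35% lay in gene bodies and 19.67% over a start, and with 10000 bp 48.59% and 12.83%. Counts of higher and lower calls at 20 rppm were 27 higher in KO MZB, 12 and 11 in KO FoB, 409 and 1249 for MZB against FoB in WT, 366 and 1119 in KO, and 1 higher for the difference of genotype effects. At 50 rppm they were 2 higher in KO MZB, 0 and 3 in KO FoB, 24 and 236 in WT and 21 and 240 in KO. At 10000 bp they were 5 and 2 in KO MZB and 3 lower in KO FoB, and without chromosome 1, an alternative chosen after seeing the data, 4 lower and 2 lower.

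Quantile normalisation gave 17 higher in KO MZB, 1 and 3 in KO FoB, 380 and 233 in WT and 342 and 177 in KO, and turned the medians for MZB against FoB to 0.045 in WT and 0.034 in KO. TMM gave 74 and 1118 in WT and 55 and 1128 in KO. EdgeR with TMM gave 71 and 1168, 59 and 1142, and 5 higher in KO FoB, as did edgeR without it (5). DESeq2 gave 3 and 2 in KO MZB, 0 and 2 in KO FoB, 63 higher in WT and 45 in KO. Robust shrinkage gave 14 higher in KO MZB, and fitting the compared groups alone 1 and 2 in KO FoB. The causes were not tested.

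Leaving out 1 library at a time gave 1829 to 1879 regions, 1 to 11 higher and 2 to 9 lower in KO MZB, 1 to 24 and 1 to 7 in KO FoB, 126 to 166 and 579 to 709 in WT, 97 to 139 and 545 to 671 in KO, and 0 to 0 for the difference of genotype effects. The KO MZB counts moved by over 1.5 times without any 1 of the WT MZB libraries, KO MZB replicate 2 or KO MZB replicate 3, and the KO FoB counts without WT FoB replicate 1 or 3 or any 1 of the KO FoB libraries. With the replicate block the counts were 9 and 9, 4 and 7, 150 and 686, 132 and 647, and 0 and 0. Same-numbered libraries did not deviate together (correlations -0.093 to 0.134), so the numbers were not taken as pairs. A fixed floor of 3 reads was taken for every library, well under the 96 reads of the least covered region. Motif shares over whole regions or windows at region centres were not run, because no genome was used here; start windows were taken instead, a choice made after seeing the data.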
